A study of Homo sapiens with 6 samples.

Results

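Focal adhesions are the sites where integrins, the cell's receptors for laminins and other matrix proteins, are joined to the actin cytoskeleton. Talins and kindlins bind the integrin tail and switch the receptor on, vinculin ties talin to actin, and layers of adaptors and kinases such as paxillin, the ILK complex, FAK and the SRC kinases pass the signal inward. Pluripotent stem cells grow as attached epithelial sheets and depend on this machinery for survival on a defined matrix. The genes described here are 41 adaptors and kinases of focal adhesions, listed by symbol. They are 41 of the 60499 gene IDs in the deposited tables, and each symbol matched a single ID.

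They were measured in H1, an established human embryonic stem cell line, in a single comparison of 2 coatings. The LN-521 group grew for 4 days on recombinant laminin-521. The LN-521+LN-221 group grew for the same time on laminin-521 mixed with laminin-221, the laminin of heart and skeletal muscle, so laminin-521 is common to both groups. Both groups were in Nutristem medium, and each had 3 wells of the same line, so p-values measure the spread between wells and not between lines or donors. No gene was targeted, and no amount of either laminin is given in the sources used here.

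Total RNA libraries held between 20606494 and 26836727 estimated counts. All 10 stem cell markers checked (among them POU5F1, SOX2, DNMT3B and PODXL) were expressed in both groups, with a summed level of 2974 to 3347 TPM (a level per transcript length, with every library brought to 1 total) on LN-521 and 3014 to 3237 TPM on LN-521+LN-221. Of these 10 markers, 3 passed the test, which is 30% against 2.53% of all genes tested (edgeR quasi-likelihood test, adjusted over all genes). NANOG was lower on LN-521+LN-221, with a mean of 64.5 CPM against 107 CPM on LN-521 (log2 fold change -0.73, edgeR adjusted p = 0.000165), POU5F1 was lower (-0.36, edgeR adjusted p = 0.00366) and LIN28A higher (0.23, edgeR adjusted p = 0.00737). Counts of NANOG and POU5F1 were not whole in all 6 libraries, which leaves their values less certain because some reads were shared out between genes. Markers of other cell types were measured in the same libraries. The summed levels on LN-521 and on LN-521+LN-221 were 2.45 to 3.91 and 2.61 to 2.89 TPM for 7 blood markers. For 6 endothelial markers they were 5.46 to 7.10 and 5.49 to 6.28 TPM; of the 4 tested, VWF was higher and TIE1 lower (log2 fold changes 0.95 and -0.87, edgeR adjusted p = 0.0272 and 0.00739). The 7 endoderm markers summed to 2.70 to 5.51 and 5.81 to 6.77 TPM, groups that did not overlap, and HHEX alone of the 2 tested was higher. The 8 mesoderm markers summed to 27.1 to 34.2 and 22.9 to 27.4 TPM, most of it KDR. Both of the 2 tested were below zero, and KDR alone passed (-0.37, edgeR adjusted p = 0.00742). The 8 neural markers summed to 58.9 to 67.6 and 65.7 to 66.4 TPM, most of it NES. Of the 3 tested, DCX was lower (-0.43, edgeR adjusted p = 0.0492). The other 2 were above zero, up to 0.39, and did not pass. The 7 fibroblast markers summed to 128 to 141 and 116 to 143 TPM, mostly from COL1A1, COL1A2 and THY1, with LUM at 0 in every library. Of the 4 tested, 3 were below zero and 1 above, and THY1 alone passed (-0.38, edgeR adjusted p = 0.0146). The part of these markers in the results below was not tested.

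Of the 41 genes, 2 changed: FERMT2, which encodes kindlin-2, rose, and VCL, which encodes vinculin, fell. That is 4.88% of the genes, against 2.53% of all 17608 genes tested (edgeR quasi-likelihood test, adjusted p under 0.05). The count was 5 without LN-521 replicate 1, where 1179 of 18026 genes passed. It was 1 without LN-521 replicate 3 (201 of 17851 genes), LN-521+LN-221 replicate 2 (198 of 18036) or LN-521+LN-221 replicate 3 (194 of 17823). With limma on log2(TPM + 1) it was 0 of 37, where 33 of 14428 genes passed. Higher calls made up 1.4% and lower calls 1.14% of all genes tested. All 41 genes passed the filter on low counts. Changes are given as log2 fold changes of the mixed coating over LN-521. Their median was -0.04 over the 41 genes and -0.0011 over all genes tested, and 27 of the 41 values were below zero, against 8859 of the 17608. With limma on log2(TPM + 1) the median was 0.0026, and 18 of the 37 genes tested were below zero. Levels of a single gene are compared between wells in CPM, which are counts divided by library size after scaling for library composition (TMM). The summed CPM of the 41 genes spanned 3317 to 3380 on LN-521 and, on the mixed coating, 3379 to 3402. In bulk RNA, fewer cells that express a gene and less RNA per cell cannot be told apart.

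FERMT2 (ENSG00000073712, chromosome 14) had 212, 192 and 198 CPM in the LN-521 wells and 297, 309.9 and 308 CPM in the LN-521+LN-221 wells. Every LN-521+LN-221 well was above every LN-521 well, with a wide gap between the groups. The mean went from 200.3 ± 10.2 to 305 ± 6.87 CPM (SD, n = 3 each), which is 1.52-fold. On the log2 scale the change was 0.61 ± 0.05 (SE; edgeR adjusted p = 4.38e-06), with a 95% interval of 0.49 to 0.72. By p-value FERMT2 ranked 10 of the 17608 genes tested. On the TPM scale the LN-521 wells had 70.4, 55.2 and 57.3 TPM and the LN-521+LN-221 wells 95.8, 96.3 and 90.8 TPM, again without overlap. The change held an adjusted p between 8.22e-09 and 0.000205 in the 6 edgeR fits that each left out a library. It did not pass with limma on log2(TPM + 1), where the log2 difference was 0.63 (adjusted p = 0.106).

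VCL (ENSG00000035403, chromosome 10) had 294, 286 and 299 CPM on LN-521 and 248, 240.2 and 244 CPM on LN-521+LN-221. All 3 LN-521+LN-221 wells were below all LN-521 wells. The mean went from 293 ± 6.42 to 244 ± 3.83 CPM (SD, n = 3 each), which is 0.833-fold. On the log2 scale the change was -0.26 ± 0.05 (SE; edgeR adjusted p = 0.00599), with a 95% interval of -0.37 to -0.16. The call was lost without LN-521 replicate 3 (edgeR adjusted p = 0.0600), LN-521+LN-221 replicate 2 (0.0894) or LN-521+LN-221 replicate 3 (0.0522), while the log2 fold change stayed between -0.28 and -0.25. With limma on log2(TPM + 1) it was -0.19 (adjusted p = 0.729), and the TPM values of the groups overlapped. Exons of VCL overlap AP3M1 on the other strand, and AP3M1 had a change of 0.01 ± 0.06 (SE; edgeR adjusted p = 0.955).

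**Figure D1:**
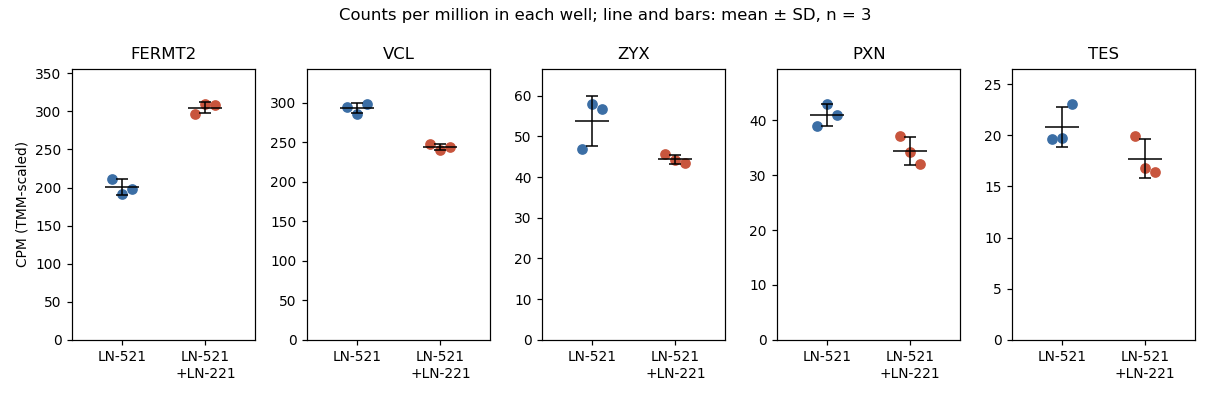
CPM of FERMT2, VCL, ZYX, PXN and TES in each well (points), with the mean and SD of 3 wells (line and bars), by coating; each panel has its own linear axis from 0. FERMT2 lies between 192 and 212 CPM on LN-521 and between 297 and 309.9 CPM on LN-521+LN-221, VCL, ZYX and PXN lie lower on LN-521+LN-221 without overlap, and TES overlaps.

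The sequences before the starts of FERMT2 and VCL are shown because these are the 2 genes that changed. They are the 250 bases up to the base before the RefSeq start on GRCh38.p14. Capitals mark matches on either strand to the core bound by TEAD factors (GGAATG) and to the GC box bound by Sp1 and related factors (GGGCGG). FERMT2 is at chr14:52951051-52951300 on the minus strand and VCL at chr10:73997866-73998115 on the plus strand.
FERMT2: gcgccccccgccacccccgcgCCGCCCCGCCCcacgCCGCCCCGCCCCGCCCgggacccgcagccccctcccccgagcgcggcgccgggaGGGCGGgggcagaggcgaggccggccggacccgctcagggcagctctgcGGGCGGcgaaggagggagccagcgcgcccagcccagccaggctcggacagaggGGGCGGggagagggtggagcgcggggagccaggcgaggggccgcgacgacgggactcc
VCL: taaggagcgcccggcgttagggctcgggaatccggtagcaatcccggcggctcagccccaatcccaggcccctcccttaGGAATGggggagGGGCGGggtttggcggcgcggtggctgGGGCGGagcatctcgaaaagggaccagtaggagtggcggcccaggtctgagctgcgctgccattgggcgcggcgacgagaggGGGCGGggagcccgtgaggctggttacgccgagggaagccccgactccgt
The FERMT2 window had no TEAD core and 8 GC boxes, some of which overlap each other, and 84.4% of its bases were G or C. The VCL window had 1 TEAD core, at position -171 counted from the start, and 3 GC boxes, and 70.4% of its bases were G or C. A TEAD core occurred in 11.9% of all 35116 promoter windows of this length and in 9 of the 80 windows listed for the 41 genes, of which 36 have an entry. A GC box occurred in 42.6% of all windows and in 39 of those 80. Such a match describes the letters and says nothing about binding in these cells.

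Kindlins exist in 3 forms, and FERMT2 made up 91.7% ± 0.16 (SD, n = 3) of their summed TPM on LN-521 and 94.6% ± 0.253 (SD, n = 3) on LN-521+LN-221. The share was higher, as a description with no test, in every LN-521+LN-221 well than in any LN-521 well. FERMT1, the kindlin of epithelial cells, was at 5.56, 4.04 and 4.59 TPM on LN-521 and at 5.15, 5.28 and 4.57 TPM on LN-521+LN-221, overlapping ranges. FERMT3, the kindlin of blood cells, was at 0.767 and 0.383 TPM on LN-521 and LN-521+LN-221, groups without overlap but with few counts. In CPM the groups overlapped, with means of 0.819 and 0.695, so the 2 scales differed. The log2 fold changes were -0.04 for FERMT1 (95% interval -0.21 to 0.14) and -0.22 for FERMT3 (-0.96 to 0.51), and neither passed the test. Exons of FERMT3 overlap TRPT1 on the other strand, which had more counts than FERMT3 in every library.

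The talins, the other activators of integrins, did not pass either. TLN1 had 124, 147 and 131 CPM on LN-521 and 129, 133 and 133 CPM on LN-521+LN-221, overlapping groups with a log2 fold change of -0.03 (95% interval -0.16 to 0.10). TLN2 had a log2 fold change of 0.02 (95% interval -0.12 to 0.16). With limma on log2(TPM + 1) it was 0.24 and did not pass. TLN1 made up 66.1% ± 1.53 of the talin TPM on LN-521 and 60.3% ± 6.87 on the mixed coating (SD, n = 3 each).

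The ILK complex joins ILK, a pseudokinase that binds the integrin tail, to a PINCH protein (LIMS1 or LIMS2), a parvin (PARVA, PARVB or PARVG) and, through PINCH, RSU1. None of its 7 genes passed the test, by edgeR or by DESeq2, where 2.53% of all genes tested passed by edgeR. An unadjusted p under 0.05 was reached by 0 of them, against 14.5% of all genes tested. ILK had 71.4, 78.6 and 79.7 CPM on LN-521 and 73.9, 70.6 and 78.8 CPM on LN-521+LN-221, with a log2 fold change of -0.04 (95% interval -0.18 to 0.10). All 7 log2 fold changes were below zero, between -0.44 for LIMS2 and -0.02 for LIMS1, but ILK was at 0.0092 and RSU1 at 0.029 with limma on log2(TPM + 1), and LIMS1 and PARVG also changed sign when single libraries were left out. By level, ILK had 41.3 TPM, RSU1 19.7 TPM and LIMS1 9.82 TPM on LN-521. LIMS2 was at 0.340 TPM, so LIMS1 held at least 95.2% of the PINCH TPM in each library. PARVB, at 5.88 TPM, led the parvins on LN-521, ahead of PARVA (1.86 TPM) and PARVG (0.413 TPM), a gene mainly of blood cells. Counts of LIMS1 were not whole in all 6 libraries, so part of its reads had been divided with other genes.

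Among the paxillins, scaffolds that dock kinases and the Cas and GIT proteins, PXN came close to the threshold. It had 39.03, 43.01 and 40.98 CPM on LN-521 and 37.2, 34.2 and 32.1 CPM on LN-521+LN-221, without overlap. Its log2 fold change was -0.25 ± 0.07 (SE; unadjusted p = 0.00371, edgeR adjusted p = 0.0945). It passed without LN-521 replicate 1 (edgeR adjusted p = 0.0211) and without a filter (0.0420), and not when any other library was left out (0.108 to 0.375) or with limma (0.766 to 0.823). TGFB1I1, which encodes HIC-5, differed in sign between the scales: its mean went from 2.44 to 1.88 CPM and from 1.27 to 1.47 TPM. LPXN, the leukocyte paxillin, was at 1.22 TPM on LN-521 and 1.23 TPM on LN-521+LN-221. PXN held 82.4% of the family's TPM on LN-521 and 79.4% on LN-521+LN-221.

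None of the 6 kinase genes passed the test, by edgeR or by DESeq2 (2.53% of all genes tested passed by edgeR), and 0 had an unadjusted p under 0.05 (14.5% of all genes tested). PTK2, which encodes FAK, the tyrosine kinase that autophosphorylates on integrin engagement, had 199, 198 and 209 CPM on LN-521 and 211, 221 and 215 CPM on LN-521+LN-221. The groups did not overlap, but the log2 fold change of 0.10 (95% interval -0.01 to 0.21) did not pass (edgeR adjusted p = 0.417). All 6 values were above zero, between 0.01 for PEAK1 and 0.12 for PTK2B. PEAK1, a scaffolding pseudokinase, turned to -0.11 with limma on log2(TPM + 1), and YES1 to -0.02 with a correction for GC content; SRC, YES1 and PEAK1 also changed sign when single libraries were left out. PTK2 held at least 97.3% of the TPM of PTK2 and PTK2B in every library. Of the SRC family kinases, which phosphorylate FAK, paxillin and Cas, YES1 was at 42.1 TPM and FYN at 36.1 TPM on LN-521. SRC itself was at 4.87 TPM and made up 5.91% ± 0.792 (SD, n = 3) of the TPM of the 3. The changes of SRC (0.06, 95% interval -0.13 to 0.25), FYN (0.07, -0.06 to 0.20) and YES1 (0.02, -0.11 to 0.15) were within the spread of the wells. Counts of YES1 were not whole in 2 libraries.

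**Figure D2:**
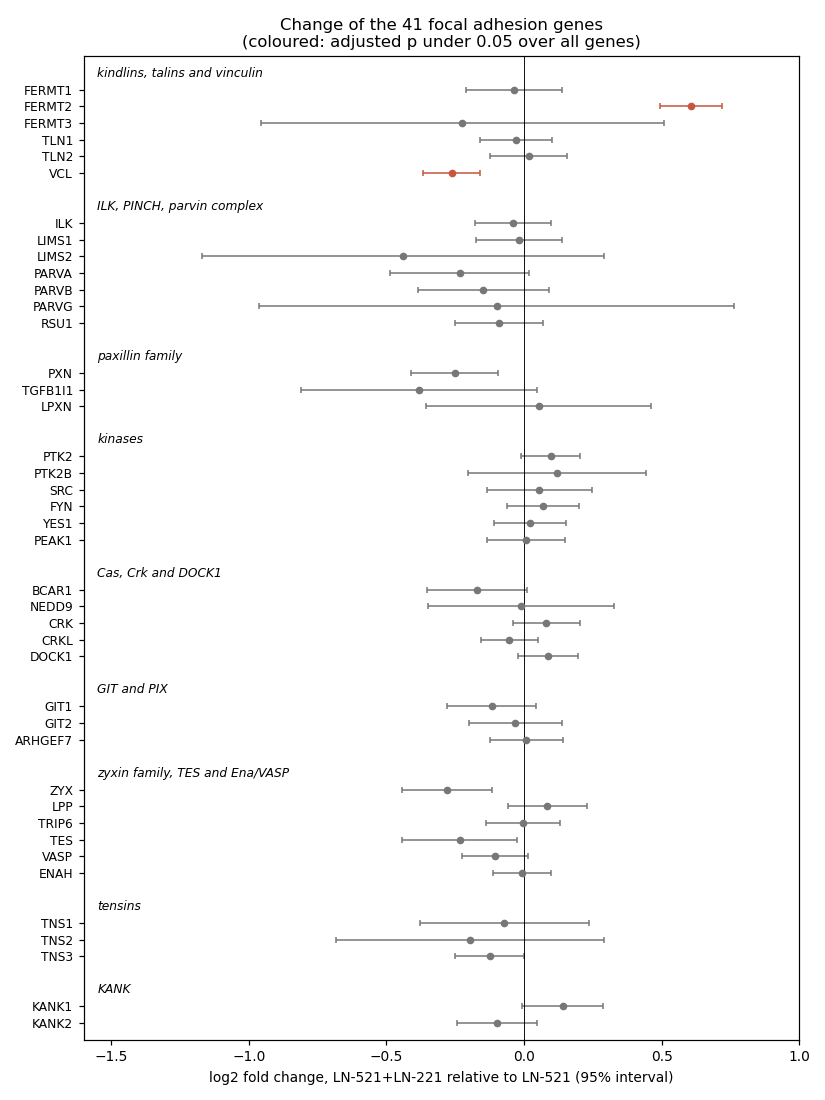
Log2 fold change of the 41 genes, the mixed coating over LN-521, grouped by role (points), with 95% intervals (bars); coloured points passed the adjusted p of 0.05 over all genes tested. FERMT2 at 0.61 and VCL at -0.26 are the coloured points, and the widest intervals belong to genes with few counts such as LIMS2, FERMT3 and PARVG.

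The Cas scaffolds BCAR1 and NEDD9 recruit the adaptors CRK and CRKL, which in turn bind DOCK1, an exchange factor for RAC. None of these 5 genes passed, by edgeR or by DESeq2, and 0 had an unadjusted p under 0.05, where all genes tested gave 2.53% by edgeR and 14.5%. CRKL, the most abundant of them by TPM, had 221, 217 and 219 CPM on LN-521 and 213, 212 and 208 CPM on LN-521+LN-221. These groups did not overlap, yet the log2 fold change was only -0.05 (95% interval -0.16 to 0.05; edgeR adjusted p = 0.687). DOCK1 (0.09, 95% interval -0.02 to 0.20) and CRK (0.08, -0.04 to 0.20) also had groups without overlap. BCAR1 had 35.9, 45.8 and 42.8 CPM on LN-521 and 37.5, 34.4 and 38.9 CPM on LN-521+LN-221. Its log2 fold change was -0.17 ± 0.09 (SE; edgeR adjusted p = 0.384). Its lowest LN-521 well was replicate 1, without which the log2 fold change was -0.26 (edgeR adjusted p = 0.0299), and it did not pass when any other library was left out (-0.21 to -0.09). Counts of BCAR1 were not whole in 5 libraries, and its exons overlap AC009078.3 on the same strand (39 to 57 counts). BCAR1 held at least 93.5% of the Cas TPM in each library, and NEDD9 was at 0.620 TPM on LN-521.

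GIT1, GIT2 and ARHGEF7 (beta-PIX) form a complex that brings RAC and CDC42 regulators to paxillin. ARHGEF7 had 68.3, 63.1 and 65.3 CPM on LN-521 and 67.6, 68.1 and 62.3 CPM on LN-521+LN-221, and its change was 0.01 on the log2 scale (95% interval -0.12 to 0.14). GIT1 (-0.12, 95% interval -0.28 to 0.04) and GIT2 (-0.03, -0.20 to 0.14) did not pass either. On LN-521 ARHGEF7 was at 16.8 TPM, GIT1 at 15.0 TPM and GIT2 at 7.49 TPM.

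Zyxin, its relatives LPP and TRIP6, testin and the Ena/VASP proteins sit where adhesions meet actin, and zyxin moves onto actin fibres under tension. ZYX had 46.9, 58.0 and 56.7 CPM on LN-521 and 45.6, 44.1 and 43.4 CPM on LN-521+LN-221. The groups did not overlap, with LN-521 replicate 1 close to the other coating. The log2 fold change was -0.28 ± 0.08 (SE; unadjusted p = 0.00225, edgeR adjusted p = 0.0707). ZYX passed without LN-521 replicate 1 (-0.37, edgeR adjusted p = 0.000643) and with DESeq2 (-0.28, adjusted p = 0.0491), without a filter, with the replicate block and with the GC correction. It did not pass when any other library was left out (-0.30 to -0.22, edgeR adjusted p = 0.136 to 0.324) or with limma on TPM (adjusted p = 0.592 to 0.730). EPHA1, whose exons overlap those of ZYX on the other strand, had a change of -0.20 ± 0.07 (SE; edgeR adjusted p = 0.151), and the sources used here do not say if the counting separated strands.

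TES, which encodes testin, had 19.6, 19.8 and 23.1 CPM on LN-521 and 19.9, 16.8 and 16.4 CPM on LN-521+LN-221. These groups overlapped, and the log2 fold change of -0.23 ± 0.10 (SE; unadjusted p = 0.0297) did not pass (edgeR adjusted p = 0.273). ENAH, which encodes the actin elongation factor MENA, was the most abundant of the 41 genes by TPM, with 235, 183 and 195.5 TPM on LN-521 and 216, 204 and 199.6 TPM on LN-521+LN-221. Its log2 fold change was -0.01 (95% interval -0.11 to 0.10), and it was the only gene short of the threshold whose interval stayed within 1.1-fold either way. VASP was at 47.8 ± 2.42 TPM and TRIP6 at 41.2 ± 3.05 TPM on LN-521 (SD, n = 3 each). In CPM, VASP (-0.11, 95% interval -0.23 to 0.01), LPP (0.09, -0.06 to 0.23) and TRIP6 (-0.0037, -0.14 to 0.13) did not pass.

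Tensins stabilise the more mature, fibrillar adhesions, and KANK proteins cap the adhesion's rim and link it to microtubules. TNS3, the tensin with 76.6% ± 4.15 (SD, n = 3) of the family's TPM on LN-521, had 69.1, 70.9 and 66.4 CPM on LN-521 and 62.1, 63.1 and 64.1 CPM on LN-521+LN-221. Its groups did not overlap, and its log2 fold change of -0.13 (95% interval -0.25 to 0.00) did not pass (edgeR adjusted p = 0.345). TNS1 (log2 fold change -0.07) and TNS2 (-0.20) did not pass either and were at 1.463 and 1.203 TPM on LN-521. TNS1 turned to 0.08 without LN-521 replicate 2, and TNS2 lay between -0.36 and -0.04 when single libraries were left out. KANK1 and KANK2 had log2 fold changes of opposite sign, 0.14 (95% interval -0.01 to 0.29) and -0.10 (95% interval -0.24 to 0.05). KANK2 had 42.8, 43.5 and 39.4 CPM on LN-521 and 39.9, 39.1 and 38.4 CPM on LN-521+LN-221, with the lowest LN-521 well inside the range of the other coating. Counts of KANK1 were not whole in all 6 libraries.

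**Figure D3:**
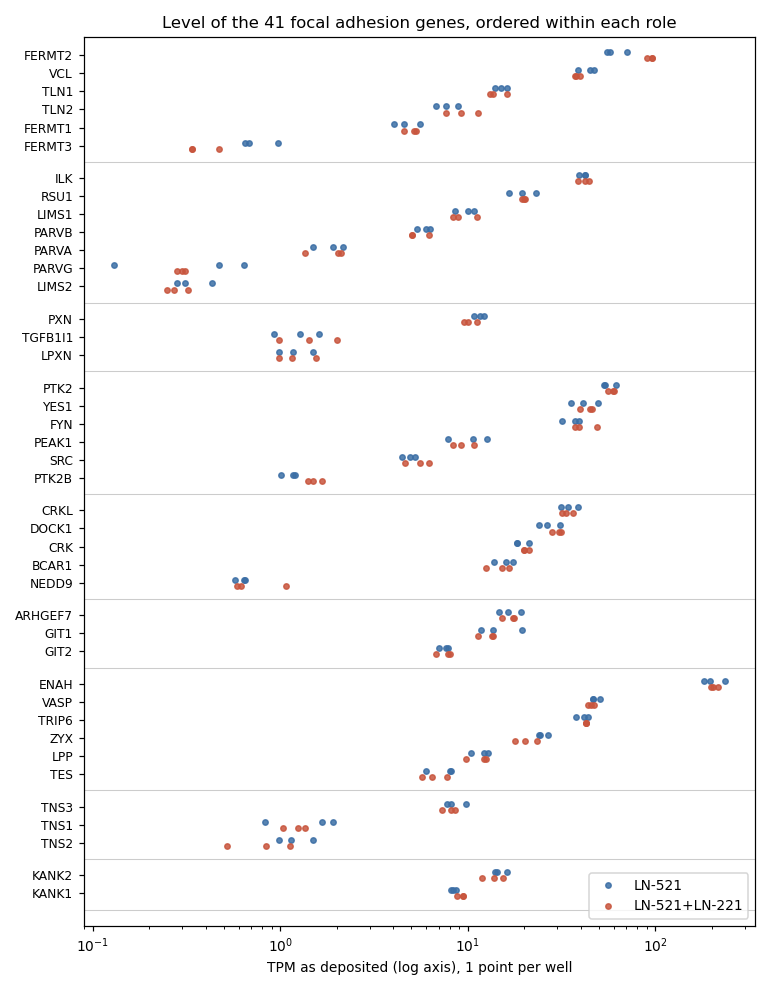
Level of the 41 genes in TPM as deposited, 1 point per well, on a log axis, ordered by mean within each role and coloured by coating. ENAH stands highest, near 200 TPM in both groups, FERMT2 shows separated groups, and LIMS2, PARVG, FERMT3 and NEDD9 lie under 1 TPM on average.

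Across the 41 genes, 37 had a mean of at least 1 TPM, 21 of at least 10 TPM, and 4 (FERMT3, LIMS2, PARVG and NEDD9) were under 1 TPM. An unadjusted p under 0.05 was reached by 5 of the 41, which is 12.2%, against 14.5% of all genes tested. CPM values of the groups did not overlap for 12 of the 41, or 29.3%, against 19.9% of all genes tested, 4 of them higher and 8 lower on LN-521+LN-221. For the 39 genes that did not pass, the 95% interval of the change stayed within 1.3-fold either way for 27 and within 1.5-fold for 34. The other 5 were FERMT3, LIMS2, PARVG, TGFB1I1 and TNS2, whose intervals reached past 1.5-fold. The sign of the change differed between mean CPM and mean TPM for 10 of the 41. Exons of 21 of the 41 overlap another gene on the other strand, and the sources used here do not say if the counting separated strands. Among these are ILK with TAF10 (774 to 1023 counts), TNS2 with SPRYD3 (118 to 185) and PARVG with AL031595.2 (14 to 32).

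Genes around this core were described from lists of other adhesion genes, to be read against the 2.53% of all genes tested that passed and the 14.5% with an unadjusted p under 0.05. Among integrin subunits, the receptors themselves, 20 of 25 were tested, 1 was higher and 1 lower, 6 had an unadjusted p under 0.05, and 16 of the 20 were below zero, with a median log2 fold change of -0.12. ITGB8, a partner of the alpha-v subunit, had 22.9, 17.6 and 15.6 CPM on LN-521 and 26.7, 27.1 and 29.6 CPM on LN-521+LN-221, without overlap. Its log2 fold change was 0.58 ± 0.11 (SE; edgeR adjusted p = 0.00939). ITGA3, an alpha subunit of laminin-binding integrins, was lower (-0.36, edgeR adjusted p = 0.0370). ITGB1, the beta subunit that kindlin-2 and talin bind in these receptors, did not pass (-0.12, unadjusted p = 0.0378, edgeR adjusted p = 0.305). With the GC correction, with or without the replicate block, ITGB1 passed as lower. Its counts were not whole in all 6 libraries. The ITGB8 call was lost without LN-521 replicate 2, LN-521 replicate 3 or LN-521+LN-221 replicate 3, and the ITGA3 call in every fit that left out a library except the one without LN-521 replicate 1.

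Of 32 genes for actin, its crosslinkers and the myosin of stress fibres, 2 were higher, 0 were lower, 7 had an unadjusted p under 0.05 and the median log2 fold change was -0.00067. TPM1, a tropomyosin that stabilises actin filaments, had 356, 360.1 and 326 CPM on LN-521 and 419, 425 and 442 CPM on LN-521+LN-221 (0.30 ± 0.05 SE, edgeR adjusted p = 0.00364). CNN3, an actin-binding calponin, went from 301 ± 3.51 to 346 ± 3.64 CPM (SD, n = 3 each; log2 fold change 0.20, edgeR adjusted p = 0.0374). Neither TPM1 nor CNN3 passed without LN-521 replicate 3, and CNN3 also lost the call when any single LN-521+LN-221 well was left out, with library size alone and without a filter. Without LN-521 replicate 1 the list had 2 higher and 3 lower (ACTB, TAGLN and TAGLN2), in a fit where 1179 of 18026 genes passed. Without a filter it had 1 higher and 2 lower (TAGLN and TAGLN2), where 718 of 36261 genes passed.

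Of 31 genes that signal downstream of focal adhesions, 30 were tested, 1 was lower and 0 were higher, 3 had an unadjusted p under 0.05, and the median was -0.03. RAPGEF1, the RAP1 exchange factor that CRK and CRKL bring to adhesions, had 48.0, 45.2 and 48.8 CPM on LN-521 and 40.0, 38.3 and 38.9 CPM on LN-521+LN-221. Its log2 fold change was -0.28 ± 0.07 (SE; edgeR adjusted p = 0.0305), and the call was lost when LN-521 replicate 3 or any single LN-521+LN-221 well was left out. Of 18 genes for integrin trafficking and inhibition, 0 passed by edgeR and by DESeq2, 4 had an unadjusted p under 0.05, and the median was -0.06. The largest decrease among these 18 was CAV1, the caveolae coat protein, at -0.48 ± 0.13 (SE; edgeR adjusted p = 0.0711), named here after its values were seen. RAB25, also of these 18, passed as lower without a filter, with the replicate block and without LN-521 replicate 1. CAV1 passed as lower with the GC correction, and both passed with correction and block.

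**Figure D4:**
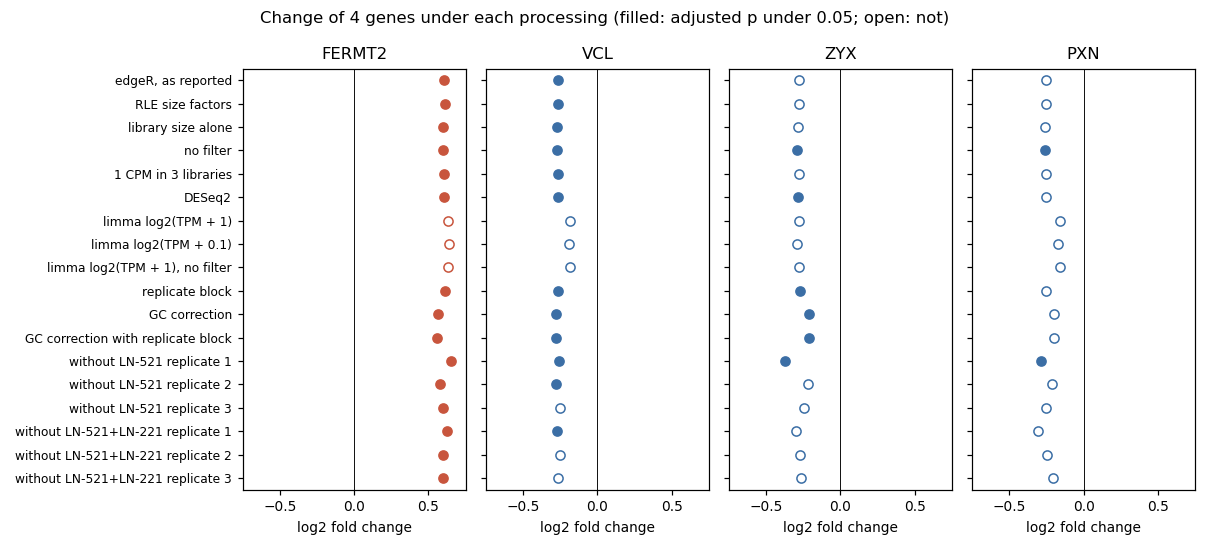
Log2 fold change of FERMT2, VCL, ZYX and PXN (1 panel each) under each processing, from the edgeR fit as reported at the top to the fits that leave out a library at the bottom; filled points passed an adjusted p of 0.05 and open points did not. FERMT2 keeps its sign everywhere and is open only for limma on TPM, VCL keeps its sign and is open in 6 settings, and ZYX and PXN are mostly open.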

How the data were processed

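The authors deposited estimated counts per gene (expected counts, 6.08% to 6.67% of values per library not whole) and TPM values, in which the authors had accounted for transcript length and given each library an equal sum. Per the submitters' processing notes, cutadapt, STAR 2.5.2b, RSEM 1.2.31 and the build hg38 were used; annotation and use of strand are not given in the sources used here. Per the labels' protocols, the total RNA kit was stranded. The deposited sample sheet lists 1 sequencing batch.

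Estimated counts were rounded and genes kept by edgeR's filterByExpr (minimum count 10). Trimmed mean of M-values (TMM) factors set the library sizes, and a quasi-likelihood test compared the coatings (edgeR 4.0.16, R 4.3.3, robust), with no block for the replicate number. Benjamini-Hochberg adjustment ran over all 17608 genes kept, with a threshold of 0.05. The SE is the absolute log2 fold change over the square root of F. Other settings were RLE or library size alone, other filters, DESeq2 1.42.0, limma 3.58.1 on log2(TPM + 1), with and without a minimum of 1 TPM in 3 libraries, or on log2(TPM + 0.1), a GC correction (lowess, span 0.3, GENCODE release 29), a replicate block, a threshold of 0.1 and leaving out each library.

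The 41 genes and the other lists were chosen with earlier results of these data known. Values in every library are given for genes with an adjusted or unadjusted p under 0.05, for the gene with the highest TPM of each role and for some others chosen after their values were seen; from the other lists, genes with an adjusted p under 0.05 are named, and 1 further list is not reported here. Promoter sequences are from RefSeq (GRCh38.p14). Scripts were tested on simulated data.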

Additional observations from a re-analysis of the deposited data

How the results depend on the processing

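The 2 calls among the 41 genes were FERMT2 and VCL with RLE size factors, library size alone and a filter of 1 CPM in 3 libraries. They were joined by ZYX with DESeq2, the replicate block, and the GC correction with or without the block (3 genes each). Without a filter, and at a threshold of 0.1, 4 passed. With limma on TPM, 0 passed with log2(TPM + 1), log2(TPM + 0.1) or no filter. Leaving out a library gave 1 to 5. Over all genes, 718 passed without a filter, 33, 16 and 1 in the 3 limma settings, 916 with the GC correction, 969 with GC and block, 725 at 0.1 and 194 to 1179 with a library left out. No pairing of wells is stated for the replicate numbers. Deviations of same-numbered wells correlated at 0.09, -0.05 and -0.03, too few values to show whether wells were paired. With the replicate block, 646 of all genes passed.

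Each limma setting called 0 integrin, actin and signalling genes. The GC correction, with or without the block, called 4 of 20 integrin and 5 of 32 actin genes. Of all 17473 genes tested, 916 passed with the GC correction and 969 with correction and block. Library size alone called 1 of 32 actin genes, against 420 of all 17608 genes tested. Of 18 trafficking genes, 1 (RAB25) passed without a filter, where 718 of 36261 genes passed. With the block 1 passed (RAB25), where 646 of 17608 genes passed. A threshold of 0.1 gave 1 (CAV1), against 725 of 17608 genes. The GC correction gave 1 (CAV1), and correction and block gave 2 (RAB25 and CAV1). Leaving out a library gave 0 to 3 of 20 integrin and 0 to 5 of 32 actin genes. It gave 0 to 1 of 18 trafficking and 0 to 3 of 30 signalling genes. Among all genes tested, 194 to 1179 passed in these fits. Of the 12 genes followed singly, ILK reversed in the limma settings (0.0092, 0.0094 and 0.0092), ENAH too (0.024 in each) and ARHGEF7 without a filter (-0.0014). Ranges with a library left out were -0.035 to 0.024 for ENAH and -0.016 to 0.048 for ARHGEF7. For all of these, the cause was not tested. Of their other values with all libraries, 113 kept direction and side of the threshold, 6 lost and 6 gained it.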
